A study of Mus musculus with 12 samples.

Results

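Dnmt1, Uhrf1, Dnmt3a, Dnmt3b, Dnmt3l, Tet3, Dppa3 and Npm2 encode proteins that write, copy, remove or shield DNA methylation or take part in the chromatin organisation of oocyte and pronuclei. They were taken by name from a deposited table of FPKM (fragments per kilobase of transcript, scaled to the mapped fragments of the library), and 8 of 8 were present among its 11298 complete genes. The libraries were Smart-seq2 libraries from C57BL/6 mice, each made from 10 oocytes or embryos, with cDNA primed by oligo-dT and ERCC spike-in RNA in the lysis buffer. The 6 groups of 2 libraries were WT and Pabpn1l KO oocytes at the germinal vesicle (GV) stage, collected in vivo, and WT and Pabpn1l KO 1-cell and 2-cell embryos, cultured in KSOM medium. PABPN1L, the product of Pabpn1l, binds poly(A) tails in the oocyte and early embryo, and the study compared the genotypes across the loss of maternal mRNA. The labels give neither the age of the mice, nor the type of the mutation, nor whether KO names the mother or the embryo, nor whether both libraries of each group stem from different animals. The p-values therefore measure the spread between these libraries, which may be technical.

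A growing oocyte lays down methylation, and the fertilized egg then erases much of it. DNMT3A and its partner without catalytic activity, DNMT3L, place new methyl groups in the oocyte, while DNMT1, guided by UHRF1 to half-methylated DNA, copies existing ones after replication. In the zygote TET3 oxidises 5-methylcytosine, mainly in the paternal pronucleus, DPPA3 (also called STELLA) shields maternal DNA from that oxidation, and NPM2 (nucleoplasmin 2) is a histone chaperone that takes part in chromatin and nucleolar organisation of oocyte and pronuclei.

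These are maternal mRNAs, whose fate after meiotic resumption depends in part on sequences at the 3′ end that bind polyadenylation factors. The 3′ ends are shown for Dnmt1, Dnmt3a, Uhrf1, Dppa3 and Npm2. Tet3 and Dnmt3l had no match to mark, and Dnmt3b, with a match to ATTAAA, is not shown. Each line gives 30 bases from near the end of the GENCODE M21 transcript, 5′ to 3′. Capitals mark a cytoplasmic polyadenylation element (TTTTAT) in Dnmt1 and Dnmt3a, and the polyadenylation hexamer AATAAA in Uhrf1, where 2 copies overlap, Dppa3 and Npm2.
Dnmt1-201: gacttgatgtagTTTTATatgttgtaatat
Dnmt3a-201: tgtttatatataTTTTATtttcgctataaa
Uhrf1-201: atattgcAATAAAATAAAattctggccggg
Dppa3-201: ccagaaatttgtAATAAAagcatttttgtt
Npm2-201: gcctagggccacAATAAAatttgcatgatc
The last 100 bases of each transcript, or its annotated 3′ UTR where that is shorter, were searched on the transcript strand for TTTTAT or TTTTAAT. Of the 8 members, only Dnmt1 and Dnmt3a held a match, starting 48 and 55 bases from the end, against 20.2% of the 9049 genes of the table with such a window. AATAAA or ATTAAA was found in 6 of the 8, against 81.9% of the 9049. The annotated 3′ UTR of the Tet3 transcript searched, Tet3-203, is 3 bases long. Only these 3 bases were searched, so Tet3 could not hold a match and its place among the 8 says nothing about its 3′ end. The annotated end may not be the one used in oocytes, and a missing match says only that these letters are not in this window.

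Pabpn1l itself measured 220.1 and 203.9 FPKM in WT GV oocytes and 7.23 and 4.98 FPKM in KO GV oocytes, and at the 1-cell stage 16.4 and 12.2 FPKM in WT and 2.57 and 4.55 FPKM in KO. At the 2-cell stage it lay between 1 and 1.18 FPKM in WT and between 1.00 and 1.90 FPKM in KO, at or near the lowest value of the table. No value was below 1 FPKM, here called the floor. Of the 11298 genes 4588 and 4937 were at the floor in the WT and 3370 and 2745 in the KO 1-cell libraries. At the 2-cell stage 5562 and 5121 were at it in WT and 6187 and 6561 in KO. A gene at the floor in all libraries compared cannot be called, so shares of the table include genes that could not change. Every embryo column carried 1 multiplier on all its values, here called the library factor, which was 1 in oocytes. At the 1-cell stage it was 0.269 and 0.212 for the WT and 0.432 and 0.552 for the KO libraries, and at the 2-cell stage 0.116 and 0.123 for WT and 0.130 and 0.121 for KO. Its basis is not given in the sources used here, so each tested comparison is also given on values divided by it ("before the factor"), where the floor corresponds to up to 4.71 FPKM at the 1-cell and 8.61 FPKM at the 2-cell stage. Read counts are not part of the FPKM values, so the depth is unknown, and values of the 2 libraries of a group correlated across genes at r between 0.971 and 0.993 on the log2 scale. The 12 oocyte markers were all above the floor in GV oocytes of both genotypes, where their summed level was 15543 to 16312 FPKM in WT and 16045 to 16688 FPKM in KO. It was 2676 to 3700 and 7602 to 8801 FPKM at the 1-cell stage and 639.1 to 694.1 and 1788 to 1862 FPKM at the 2-cell stage in WT and KO. Of the 2-cell markers 7 of 15 were in the table, of which 6 exceeded the floor in WT and 4 in KO 2-cell embryos. Their summed level was highest in GV oocytes, at 43.6 to 50.3 FPKM in WT and 41.4 to 46.7 FPKM in KO, where only 2 of the 7 exceeded the floor. The sum therefore did not mark the 2-cell stage. Tdpoz1, Tdpoz2, Tdpoz4, Gm5662 and Dub1 were at the floor in all oocyte and 1-cell libraries, and each exceeded it in WT 2-cell embryos. Of these 5, Tdpoz2 and Tdpoz4 were still at the floor in KO 2-cell embryos. The summed level was 7.61 to 8.14 and 26.3 to 29.7 FPKM at the 1-cell stage and 12.7 to 13.1 and 8.02 to 10.6 FPKM at the 2-cell stage in WT and KO. Of the other marker lists the table held 5 of 14 cumulus and granulosa genes, 3 of 8 sperm genes and 5 of 10 blood genes. Summed levels in 2-cell embryos of both genotypes did not exceed 6.07 FPKM over 5 cumulus and granulosa genes, 3.74 FPKM over 3 sperm genes, and 7.02 FPKM over 5 blood genes, where the floor alone gives 5, 3 and 5 FPKM. In oocytes these sums reached 74.0 to 86.4, 59.1 to 73.1 and 18.6 to 20.1 FPKM. At the 1-cell stage they were higher in KO than in WT, at 22.3 to 27.1 against 12.7 to 17.04 FPKM for the cumulus and granulosa genes, 6.40 to 7.02 against 3.71 to 4.56 FPKM for the sperm genes and 8.77 to 14.1 against 6.69 to 7.25 FPKM for the blood genes, and their part in the 1-cell results was not tested. All marker sums are given as deposited only, and the library factor was also higher in the KO than in the WT 1-cell libraries.

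In GV oocytes the levels, which are per transcript length, spanned 3 orders of magnitude and had the same order in both genotypes, with Dppa3 above Npm2, Dnmt1, Uhrf1, Dnmt3l, Tet3, Dnmt3a and Dnmt3b, and no neighbours in that order overlapped. Dppa3 measured 2439 and 2843 FPKM in WT and 3020 and 3257 FPKM in KO. Npm2 measured 1289 and 1275 FPKM in WT and 1406 and 1309 FPKM in KO. In each of the 4 libraries about 99.6% or more of genes in the table lay below each of these 2 genes. Dnmt1, the maintenance methyltransferase, measured 218.7 and 222.3 FPKM in WT and 203.1 and 287.7 FPKM in KO. Its guide Uhrf1 measured 167.6 and 145.7 FPKM in WT and 154.4 and 166.1 FPKM in KO. The genotypes overlapped for both.

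The de novo pair was unequal. Dnmt3l measured 128.7 and 91.5 FPKM in WT and 124.2 and 88.3 FPKM in KO oocytes. Dnmt3a measured 27.3 and 20.0 FPKM in WT and 23.6 and 20.6 FPKM in KO, so that the mRNA of the cofactor was 4.28 to 5.25 times that of the enzyme in each library. Dnmt3b, the de novo enzyme of the later embryo, stayed between 2.57 and 2.79 FPKM. Tet3 measured 61.4 and 63.8 FPKM in WT and 49.3 and 74.6 FPKM in KO, which is 0.243 to 0.287 times the level of Dnmt1 in the 4 oocyte libraries.

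**Figure D1:**
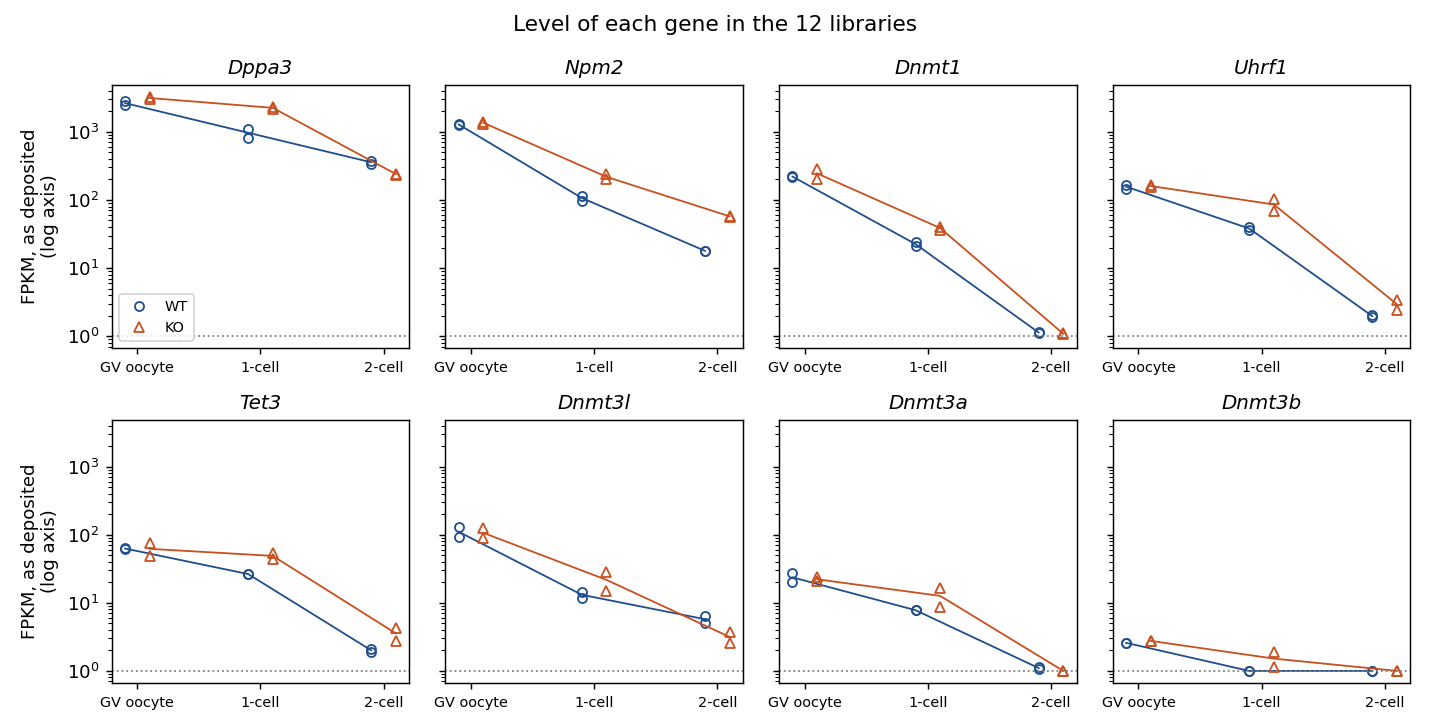
Deposited FPKM (log axis) of each gene in all 12 libraries, by stage, with circles for WT, triangles for KO, lines through the means of 2 libraries and a dotted line at the floor of 1 FPKM. WT and KO start close together in oocytes, and at the 2-cell stage Npm2 stands at 17.9 FPKM in WT and 55.9 to 59.0 FPKM in KO while Dnmt1 is near the floor in both.

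In oocytes none of the 8 genes differed between genotypes by limma on log2(FPKM + 1), with adjusted p above 0.05 on both scales. With a factor of 1 the oocyte values are the same on both scales, and only the spread estimated jointly with the embryo libraries differs. The log2 fold changes of KO against WT ran from -0.08 for Dnmt3a to 0.25 for Dppa3. Over all genes, 0.584% were called higher in KO and 1.04% lower. That was 183 genes at an adjusted p under 0.05 and 985 genes at an unadjusted p under 0.05, and 2 genes with quantile normalization or after a filter of 5 FPKM.

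From the WT oocyte to the WT 1-cell embryo all 8 genes fell on the deposited scale, as did 85.8% of the table, whose median moved by -1.49 on the log2 scale. Before the factor 3 of the 8 fell against 26.7% of the table. The median of all genes was 0 there. On that scale the libraries compared are raised to a common floor, where many genes tie at 0, so this median does not measure an overall shift. Npm2 had 34.7% of its oocyte level in the WT 1-cell embryo before the factor and 8.32% as deposited (log2 fold change -1.53 ± 0.07 SE, adjusted p = 1.07e-05 by limma before the factor). Dnmt1 kept 42.5% before the factor and 10.2% as deposited, from 24.1 and 20.9 FPKM in the WT 1-cell libraries. Dnmt3l kept 49.5% before the factor and 11.9% as deposited, with 14.5 and 11.7 FPKM, and its adjusted p before the factor was 0.0471.

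The other 5 were not called before the factor. Tet3 measured 26.3 and 26.5 FPKM in WT 1-cell embryos, 42.2% of its oocyte level as deposited and 178% before the factor. Uhrf1 measured 36.4 and 39.6 FPKM, or 24.3% as deposited and 103% before the factor. Dppa3 measured 1112 and 825.2 FPKM, 36.7% as deposited and 152% before the factor. Dnmt3a, with 7.76 and 7.82 FPKM, stood at 32.9% and 139%, and each of these 4 pointed upward before the factor. Dnmt3b was at the floor in both WT 1-cell libraries. Before the factor it did not exceed the common floor in any comparison that includes embryos, so it could not be called there.

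KO embryos were compared with KO oocytes in the same way. As deposited 6 of the 8 fell, against 66.9% of the table, whose median moved by -0.74, and Tet3 (log2 fold change -0.32, adjusted p = 0.245 by limma) and Dppa3 (-0.48, adjusted p = 0.0532) did not pass. Before the factor 3 of the 8 fell, against 20.7% of the table. These were Npm2 with 32.8% of its oocyte level kept, Dnmt1 with 32.3% and Dnmt3l with 40.5%, so the 3 genes called in WT were also the 3 called in KO. As deposited the fall of Dnmt3a lost its call without either KO oocyte library (adjusted p = 0.104 without the first and 0.0524 without the second) or without the first KO 1-cell library (0.116), and Tet3 passed without the first KO oocyte library (0.0493).

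**Figure D2:**
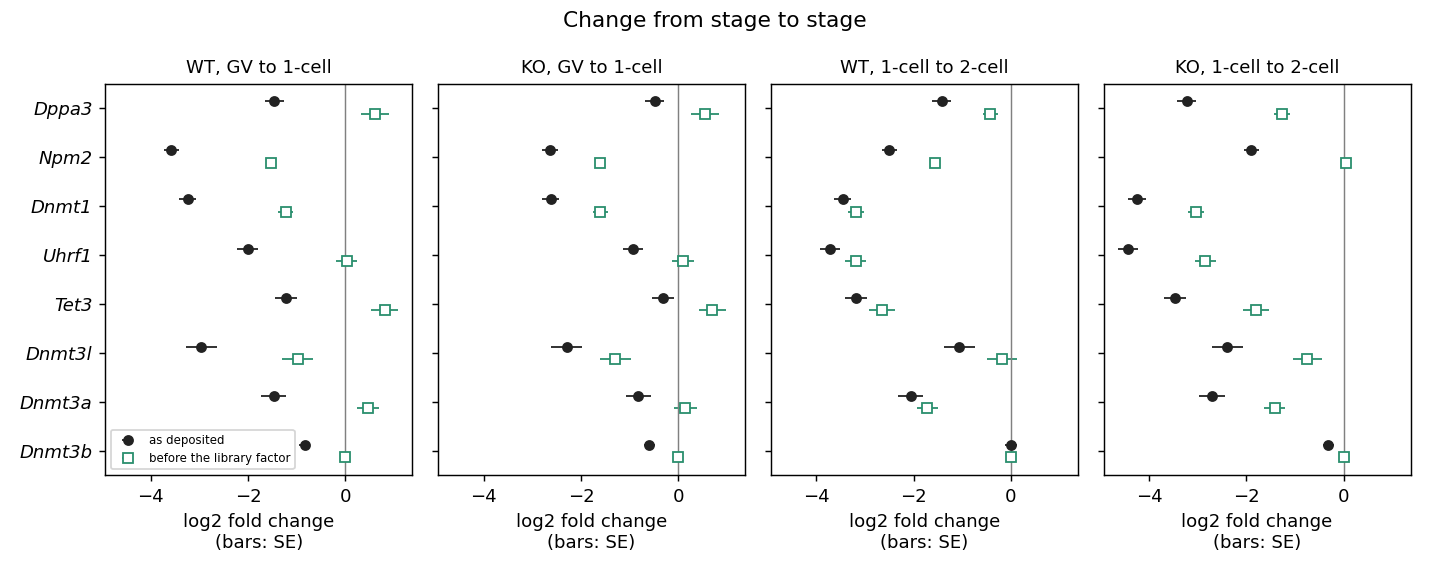
Log2 fold change from stage to stage within WT and within KO (bars: SE), as deposited (filled circles) and before the library factor (open squares). Npm2 is the gene whose 1-cell to 2-cell change before the factor is -1.56 in WT and 0.04 in KO, and Dnmt1, Uhrf1 and Tet3 lie far to the left on both scales in both genotypes.

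From the 1-cell to the 2-cell stage Dnmt1, Uhrf1 and Tet3 came down to near the floor. As deposited 7 of the 8 genes fell in WT against 29% of the table, and before the factor 5 fell against 15%. The median of all genes moved by less than 0.01 in WT on the log2 scale. Many genes were at the floor at both stages and could not fall, so this median does not measure an overall shift. Dnmt1 measured 1.13 FPKM in both WT 2-cell libraries, 5.03% of its 1-cell level as deposited and 10.1% before the factor. Uhrf1 measured 2.02 and 1.91 FPKM, which is 5.17% and 10.2% on the 2 scales. Tet3 measured 2.11 and 1.90 FPKM, 7.58% and 15.1%.

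The deposited log2 fold changes of this step were -3.72 ± 0.21 (SE) for Uhrf1, -3.46 ± 0.18 for Dnmt1 and -3.19 ± 0.23 for Tet3. No more than 1.00% of all genes in the table had a lower log2 fold change than any of these 3. Dnmt3a went to 1.13 and 1.08 FPKM and Npm2 to 17.9 FPKM in both libraries, and both fell on both scales. Npm2 thus kept 16.8% of its 1-cell level as deposited and 33.7% before the factor. Dppa3 and Dnmt3l were the best kept of the members above the floor, at 36.9% and 43.8% as deposited and 74.5% and 88.5% before the factor, where neither was called (adjusted p = 0.0797 and 0.991 by limma). As deposited the fall of Dnmt3l also lost its call when any 1 of the 4 libraries was left out, at adjusted p of 0.053 to 0.177. Dppa3 remained at 341.0 and 373.1 FPKM in WT 2-cell embryos, and Dnmt3l at 6.39 and 5.09 FPKM.

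In KO embryos all 8 genes fell from the 1-cell to the 2-cell stage as deposited, against 60.7% of the table with a median of -0.84 over all genes, and 5 fell before the factor against 16%. Dnmt1 kept 10.9% of its 1-cell level before the factor, Uhrf1 13.6%, Tet3 28.7% and Dppa3 41.0%. Dnmt3a was at the floor in both KO 2-cell libraries. Dnmt3b was at the floor in both as well, and its fall as deposited lost its call without the second KO 1-cell library (adjusted p = 0.203) or either KO 2-cell library (0.121 each). Npm2, which fell in WT on both scales, did not: in KO its level before the factor was 462.1 and 429.4 FPKM at the 1-cell stage and 452.8 and 461.5 FPKM at the 2-cell stage, or 103% kept (log2 fold change 0.04 ± 0.10 SE, adjusted p = 1 by limma), while as deposited it fell to 26.3%.

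Seen within a library, where the factor cancels except at the floor, the ratios of some members differed between stages. The ratio of Tet3 to Dnmt1 was 0.281 and 0.287 in WT oocytes, 1.10 and 1.27 in WT 1-cell embryos and 1.87 and 1.68 in WT 2-cell embryos. In KO it was 0.243 and 0.259, then 1.19 and 1.33, then 2.54 and 4.03, so that WT and KO did not overlap at the 2-cell stage, where Dnmt1 is close to the floor. The ratio of Uhrf1 to Dnmt1 went from 0.767 and 0.656 in WT oocytes to 1.51 and 1.90 in WT 1-cell embryos, and at 1.80 and 1.68 the WT 2-cell embryos lay inside that range. In KO it was 0.760 and 0.577, then 1.88 and 2.52, then 2.24 and 3.20, and the 1-cell and 2-cell values overlapped. The ratio of Npm2 to Dppa3 was 0.528 and 0.448 in WT and 0.465 and 0.402 in KO oocytes. At the 1-cell stage it was 0.104 and 0.118 in WT and 0.0858 and 0.109 in KO, so the genotypes overlapped. At the 2-cell stage it was 0.0525 and 0.0480 in WT and 0.250 and 0.230 in KO, far apart. The ratios are given as a description, with no test.

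**Figure D3:**
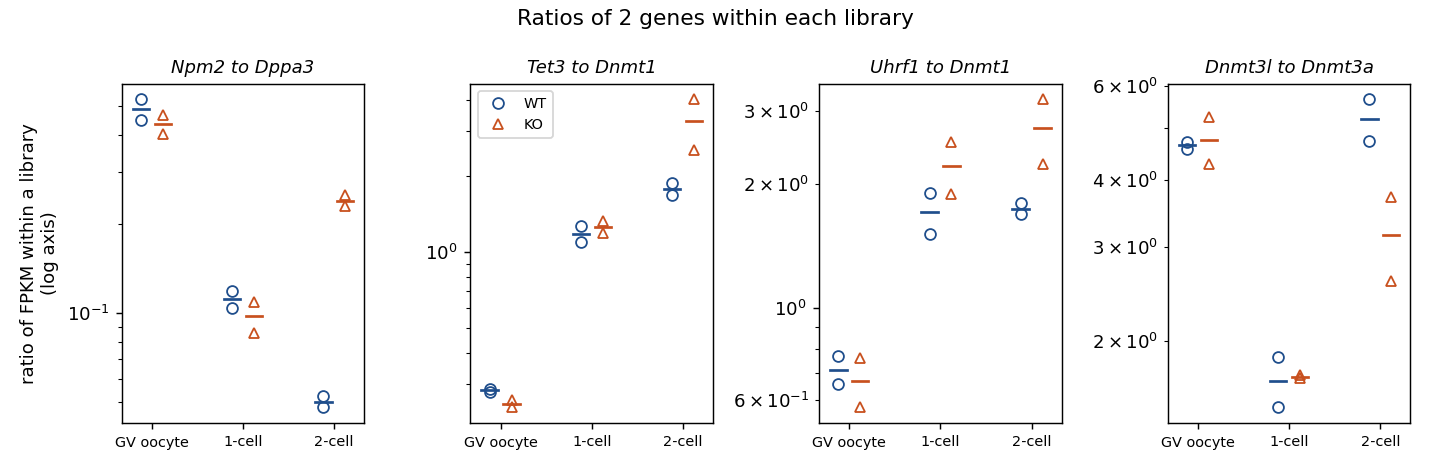
Ratio of the FPKM of 2 genes within each library (log axis, each panel with its own range), by stage, with circles for WT, triangles for KO and a bar at the mean. The ratio of Npm2 to Dppa3 falls at each stage in WT and stands at 0.230 to 0.250 in KO 2-cell embryos, and the ratio of Tet3 to Dnmt1 is above 1 in all embryo libraries.

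The genotypes were compared next at the 1-cell stage, where the factor itself differed between them. As deposited 6 of the 8 genes were called higher in KO, against 52.7% of all genes in the table, and the median log2 fold change was 0.81 over the 8 and 0.57 over all genes. Before the factor 0 of the 8 were called, against 7.36% of the table higher and 2.26% lower, with 2219 genes at an unadjusted p under 0.05. The median over all genes was 0, the value of the many genes tied at the common floor. By median-ratio scaling 0 of the 8 were called, against 9.52% of the table in either direction, and with quantile normalization 1 of the 8, Dnmt3b, was called against 29.2%.

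Dppa3 measured 2326 and 2174 FPKM in KO 1-cell embryos against 1112 and 825.2 FPKM in WT, a log2 fold change of 1.23 ± 0.19 (SE, adjusted p = 0.00121 by limma). Before the factor the WT values were 4128 and 3886 FPKM and the KO values 5384 and 3940 FPKM, which overlap. Uhrf1 measured 69.0 and 102.3 FPKM in KO against 36.4 and 39.6 FPKM in WT (log2 fold change 1.12 ± 0.21, and 0.11 before the factor). Npm2 measured 199.7 and 236.9 FPKM in KO against 115.7 and 97.6 FPKM in WT (1.03 ± 0.15, and 0.00 before the factor). These 3 stood above WT in every deposited library and overlapped WT before the factor.

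Tet3 measured 43.7 and 54.0 FPKM in KO 1-cell embryos and Dnmt1 36.6 and 40.7 FPKM, with deposited log2 fold changes of 0.85 ± 0.23 and 0.76 ± 0.18 that turned to -0.15 and -0.24 before the factor. Dnmt3b, at 1.14 and 1.89 FPKM in KO with WT at the floor, was called as deposited (adjusted p = 0.0444 by limma). Before the factor its KO values of 2.64 and 3.42 FPKM lay below the common floor of 4.71 FPKM, so it could not be called on that scale. Dnmt3a, at 8.72 and 16.5 FPKM in KO, and Dnmt3l, at 14.8 and 28.6 FPKM, did not pass as deposited (adjusted p = 0.0965 and 0.14 by limma). Without the second WT 1-cell library 3 of the 8 were called, and Dnmt1, Tet3 and Dnmt3b no longer passed, at adjusted p of 0.0501, 0.0594 and 0.15. Without the second KO library Tet3 and Dnmt3b no longer passed, at 0.0856 and 0.235, and without the first WT library Dnmt3b did not, at 0.134. Without the first KO library Dnmt3a and Dnmt3l passed as well, at 0.00316 and 0.0177.

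**Figure D4:**
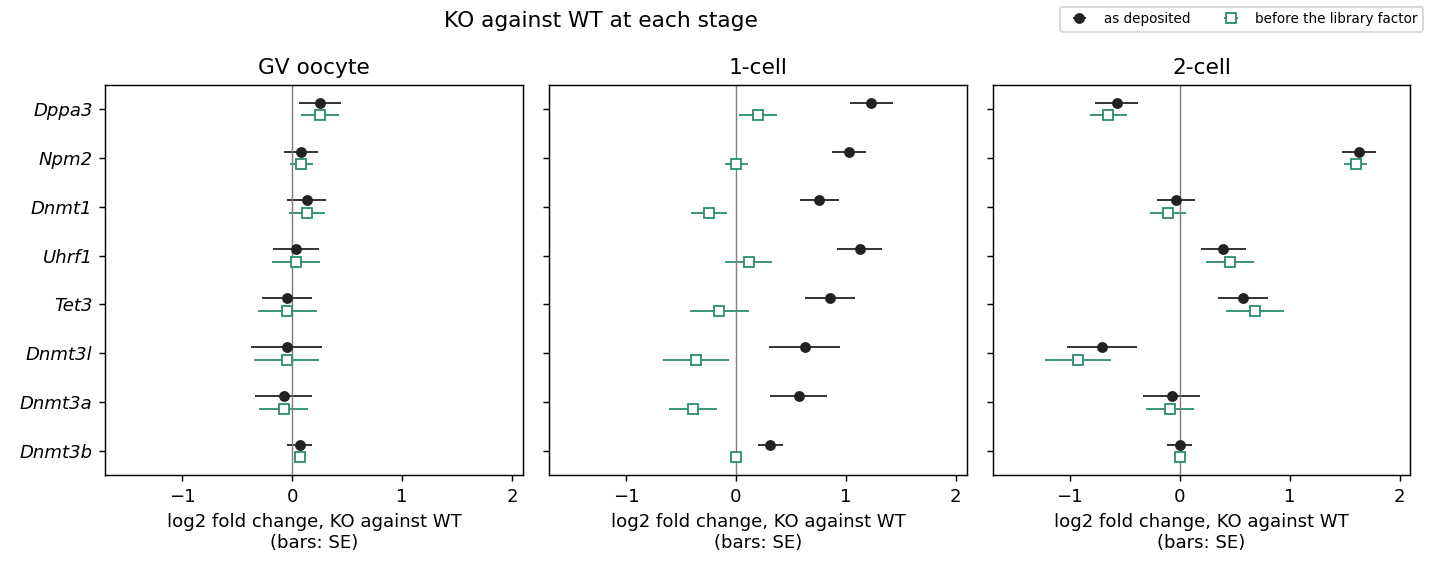
Log2 fold change of KO against WT for each gene in oocytes, 1-cell and 2-cell embryos (bars: SE), as deposited (filled circles) and before the library factor (open squares). At the 1-cell stage the 2 scales part, while at the 2-cell stage Npm2 stands at 1.63 and 1.60 and Dppa3 at -0.57 and -0.65.

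At the 2-cell stage the 2 scales nearly coincide, and Npm2, the histone chaperone, was the member higher in KO. It measured 17.9 and 17.9 FPKM in WT and 59.0 and 55.9 FPKM in KO 2-cell embryos, or 154.0 and 145.9 FPKM against 452.8 and 461.5 FPKM before the factor. Both KO libraries lay above both WT libraries, by 3.12 to 3.30 times in the 4 pairings. The log2 fold change was 1.63 ± 0.15 (SE, adjusted p = 0.000111 by limma) as deposited and 1.60 ± 0.10 (adjusted p = 1.37e-05) before the factor, and 98.9% of genes in the table had a lower log2 fold change. It was the only 1 of the 8 called higher on either scale, against 7.56% of the table as deposited and 10.6% before the factor. The summed oocyte markers given above were also higher in KO than in WT 2-cell embryos, and their part in this result was not tested.

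Dppa3 pointed the other way. It measured 341.0 and 373.1 FPKM in WT and 236.0 and 243.4 FPKM in KO 2-cell embryos, without overlap, and the KO mean was 0.671 times the WT mean. The log2 fold change of -0.57 ± 0.19 (SE) did not pass as deposited (adjusted p = 0.0756 by limma). Before the factor it was -0.65 ± 0.17 and passed (adjusted p = 0.0222), as 1 of the 8 called lower against 17.8% of the table. It also passed with median-ratio size factors (adjusted p = 0.0335), with quantile normalization (0.00499), after a filter of 5 FPKM (0.0425) and without an intensity trend (0.0269).

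The other 6 genes did not pass at the 2-cell stage on either scale. With quantile normalization Tet3 (log2 fold change 1.00, adjusted p = 0.0105 by limma) and Uhrf1 (0.81, 0.0138) passed as higher and Dnmt3a (-0.67, 0.0191) as lower, against 43.1% of the table called in either direction, and by median-ratio scaling Dnmt3l (-0.87, 0.0445) passed as lower against 28.4%. Dnmt3l measured 6.39 and 5.09 FPKM in WT and 2.59 and 3.72 FPKM in KO (log2 fold change -0.71 ± 0.32 SE, adjusted p = 0.195 by limma, and 0.0516 before the factor). Tet3 measured 2.11 and 1.90 FPKM in WT and 2.78 and 4.32 FPKM in KO (0.58 ± 0.23, adjusted p = 0.126). Uhrf1 measured 2.02 and 1.91 FPKM in WT and 2.44 and 3.43 FPKM in KO (0.40 ± 0.21, adjusted p = 0.27). For these 3 the genotypes did not overlap. Dnmt1 measured 1.13 and 1.13 FPKM in WT and 1.09 and 1.07 FPKM in KO, Dnmt3a was at 1.13 and 1.08 FPKM in WT and at the floor in KO, and Dnmt3b was at the floor in all 4 libraries, so all 3 lay at or close to the floor.

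The KO effect was then compared between stages by interaction terms. As deposited the effect at the 1-cell stage exceeded that in oocytes for 3 of the 8, Uhrf1, Dppa3 and Npm2, against 38.7% of the table, whose median was 0.60. Before the factor this held for 0 of the 8, with 3.57% of the table called higher and 0.947% lower, and 1782 genes at an unadjusted p under 0.05. From the 1-cell to the 2-cell stage the effect fell for 3 of the 8 as deposited, Dppa3, Dnmt3l and Dnmt1, against 35.7% of the table with a median of -0.53. Before the factor the effect on Npm2 was larger at the 2-cell than at the 1-cell stage by 1.60 ± 0.14 (SE, adjusted p = 0.000145 by limma), as 1 of the 8 against 5.29% of the table. As deposited the same term was 0.60 ± 0.22 and did not pass (adjusted p = 0.0589). It passed without the second WT 1-cell library (0.0462), with a pseudocount of 0.1 (0.0462), without the intensity trend (0.0193), by median-ratio scaling (1.64, adjusted p = 0.000168) and with quantile normalization (1.66, 0.000265). Dppa3 passed as lower on both scales, with a term of -1.80 ± 0.28 (adjusted p = 0.00141) as deposited and -0.85 ± 0.23 (adjusted p = 0.0324) before the factor, where 14.8% of the table was called lower. It lost its call by median-ratio scaling (-0.79, adjusted p = 0.0589) and, as deposited, with only its own groups in the fit (0.0501).

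The order of levels changed with these shifts. At the 1-cell stage of both genotypes Uhrf1 and Tet3 stood above Dnmt1, which had led both in oocytes. In WT 2-cell embryos Dnmt3l came next after Dppa3 and Npm2, Tet3 and Uhrf1 overlapped, and so did Dnmt1 and Dnmt3a. In KO 2-cell embryos Tet3, Dnmt3l and Uhrf1 overlapped behind Dppa3 and Npm2. Dppa3 made up 91.5% and 92.6% of the summed FPKM of the 8 genes in WT and 77.2% and 77.5% in KO 2-cell embryos, and Npm2 4.80% and 4.44% against 19.3% and 17.8%.

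Likeness of pattern was measured as the root mean square difference of centred log2(FPKM + 1) over the 12 libraries. Among the members the closest pair was Dnmt3a and Dppa3 at 0.38, followed by Dnmt3a and Tet3 at 0.50 and Tet3 and Dppa3 at 0.59. In the whole table the closest genes were Mrps33 (0.20), Agr3 (0.23) and Atp5g2 (0.26) for Npm2, and Wdr37, Hnrnpc and N4bp2l2 (0.19 each) for Dppa3. For Dnmt1 they were Bub1b (0.23), Fam46c (0.24) and Nlrp9b (0.30), and for Uhrf1 8430410A17Rik (0.24), Serpine2 (0.25) and Dclre1a (0.27). For Tet3 they were 3110001I22Rik (0.18), Stard13 (0.18) and Hif1a (0.21), for Dnmt3a they included Mcm10 (0.12) and Copa (0.15), and for Dnmt3l they were Nfil3 (0.14), Farsa (0.19) and Rph3al (0.22). Dnmt3b moved too little for such a ranking.

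The partners of these proteins were counted over 6 wider lists. At the 1-cell stage the deposited scale called higher 8 of 10 maintenance methylation partners, 4 of 8 methyl-CpG readers, 5 of 11 other demethylation and base excision genes, 15 of 18 genes of imprint protection and heterochromatin silencing, 8 of 13 of the methionine cycle and 18 of 23 histone chaperones and pronuclear assembly genes, and called 0 lower. These counts stand against 52.7% of the table. They cover only genes with a row, as the demethylation, imprint and methionine cycle lists named 18, 19 and 14 genes. Before the factor the same lists had 2, 0, 0, 2, 0 and 3 genes higher, against 7.36% of the table. On that scale 1 gene was lower among the chaperones, against 2.26% of the table. That gene was Srpk2, at -0.54 on the log2 scale before the factor (adjusted p = 0.0438 by limma) and higher in KO as deposited (0.46, adjusted p = 0.0327). The list medians before the factor lay between -0.01 and 0.00, against 0 over all genes. Genes tied at the common floor have a change of 0, so these medians do not measure a shift.

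Genes called higher in KO 1-cell embryos on both scales included the oocyte linker histone H1foo, at 1372 ± 451 FPKM (SD, n = 2) against 298.5 ± 5.11 FPKM in WT, and H3f3a, which encodes the replacement histone H3.3, at 509.9 ± 0.84 against 100.3 ± 23.5 FPKM. Nlrp2, a maternal-effect gene, measured 52.4 ± 12.1 against 7.05 ± 1.10 FPKM and Nlrp5, of the subcortical maternal complex, 151.7 ± 15.4 against 49.1 ± 4.42 FPKM. Supt16h, a subunit of the FACT histone chaperone, measured 30.7 ± 0.90 against 8.18 ± 2.00 FPKM. The histone deacetylase Hdac2 measured 36.5 ± 7.06 against 10.9 ± 0.10 FPKM, and Dmap1, which binds DNMT1, 8.83 ± 3.80 against 2.08 ± 0.36 FPKM.

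At the 2-cell stage the lists split in both directions. As deposited 1 gene was higher and 2 were lower among the maintenance partners, 0 and 0 among the readers, 2 and 1 among the demethylation genes, 4 and 3 in the imprint list, 1 and 2 in the methionine cycle and 4 and 4 among the chaperones. These counts stand against 7.56% of the table higher and 12% lower. Before the factor the counts were 1 and 2, 0 and 1, 2 and 1, 5 and 7, 1 and 2, and 4 and 6, against 10.6% higher and 17.8% lower, and the 1 reader was Mbd3 (adjusted p = 0.0178 by limma). In oocytes 1 reader, Mbd1, was called lower, at 1.30 ± 0.20 FPKM in KO against 2.27 ± 0.14 FPKM in WT (SD, n = 2, log2 fold change -0.51, adjusted p = 0.00487 by limma), and 0 genes of the other lists were called as deposited. In the fit before the factor 1 chaperone, Npm3, was lower in KO oocytes as well, at 1.10 ± 0.14 against 2.16 ± 0.62 FPKM (adjusted p = 0.0352 by limma). Its oocyte values and log2 fold change (-0.58) are the same as deposited, where adjusted p was 0.0557, and only the estimate of the spread differs. Srpk2, Mbd3, Mbd1 and Npm3 are named for these single counts and were chosen after their values were seen.

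The 2 deacetylases of the maintenance list went in opposite directions at the 2-cell stage. Hdac2 measured 14.8 ± 2.51 FPKM (SD, n = 2) in KO and 4.11 ± 0.58 FPKM in WT, a log2 fold change of 1.62 (adjusted p = 0.000336 by limma). Hdac1 measured 1.02 ± 0.03 FPKM in KO and 6.33 ± 0.35 FPKM in WT (-1.86, adjusted p = 0.000215), and Rbbp4, a histone-binding partner of both, was at the floor in KO against 1.96 ± 0.12 FPKM in WT. Among heterochromatin genes Cbx1 was higher in KO (14.5 ± 2.60 against 5.06 ± 0.34 FPKM), as were the H3K9 methyltransferase Suv39h2 and Nlrp5. Cbx3 was lower (9.66 ± 5.26 against 25.8 ± 5.69 FPKM), and Cbx5 and Trim28, the corepressor that holds imprints, were at the floor in KO against 1.61 ± 0.13 and 3.84 ± 0.67 FPKM in WT.

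Base excision genes Neil3 (3.64 ± 0.28 FPKM in KO, 1.19 ± 0.18 FPKM in WT) and Polb (10.0 ± 0.84 against 5.78 ± 0.57 FPKM) were higher in KO 2-cell embryos, and Gadd45b was lower (1.01 ± 0.01 against 2.49 ± 0.24 FPKM). Mat2a, the catalytic subunit of the enzyme that makes the methyl donor S-adenosylmethionine, was at the floor in both KO libraries against 6.65 ± 0.67 FPKM in WT, while its regulatory subunit Mat2b measured 124.4 ± 23.4 against 60.5 ± 4.32 FPKM. Shmt1, which feeds one-carbon units into folate metabolism, was also at the floor in KO against 4.49 ± 0.18 FPKM. Of the chaperones, H3f3a (115.5 ± 37.2 against 47.7 ± 0.02 FPKM), Asf1a (16.0 ± 4.45 against 5.90 ± 0.70 FPKM) and Srpk2 (8.93 ± 1.15 against 4.10 ± 0.24 FPKM) were higher in KO. Nasp (3.90 ± 0.03 against 11.2 ± 4.10 FPKM), Set (8.59 ± 1.98 against 18.7 ± 4.14 FPKM) and Ubn1 (1.59 ± 0.53 against 4.19 ± 1.28 FPKM) were lower. These 2-cell differences passed in the same direction on both scales.

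Some reads could belong to neighbours or copies, because the sources do not say that the libraries kept strand. In GENCODE M21 Npm2, on chromosome 14, overlaps Xpo7 on the same strand, and Xpo7 measured 1 FPKM in both WT and 1.22 and 1 FPKM in KO 2-cell embryos. Dnmt3l, on chromosome 10, overlaps Aire on the other strand, which was at the floor in all 4 of these libraries. In GV oocytes Aire measured 8.59 and 7.35 FPKM in WT and 9.02 and 7.39 FPKM in KO. Xpo7 measured 2.33 and 2.70 FPKM in WT and 2.01 and 3.37 FPKM in KO oocytes. At the 1-cell stage Aire did not exceed 1.96 FPKM and Xpo7 did not exceed 1.68 FPKM. Tet3, on chromosome 6, overlaps Mir6374 and 5430434F05Rik on the same strand and B230319C09Rik on the other, and Dnmt1, on chromosome 9, overlaps Mir7081 on the same strand. Dnmt3a and Dnmt3b, on chromosomes 12 and 2, have annotated antisense transcripts, and Dnmt3a, Dnmt3l and Dppa3 have annotated pseudogene copies, so their values carry that uncertainty.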

How the data were processed

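The authors deposited 1 table of FPKM values with 1 column per library. The tools were TopHat2 2.1.1 and Cufflinks 2.2.1 on the build mm9, per the submitters' processing notes. Because cDNA was primed with oligo-dT, per the labels' protocols, the values may also depend on poly(A) tails. An incomplete last entry, with 1 of 12 values, was left out, and 0 columns of per-sample values were unused. The table is in alphabetical order and breaks off at that entry, Zc3h14. Genes that would follow it were not analysed and are not part of the shares of the table. In each embryo column 100% of values above the floor were a 6-digit FPKM times 1 library factor, to within 0.01 of the last digit. The power of 10 of each factor was set so that the library total came nearest to the oocyte total. Division by it gave the scale before the factor, on which all libraries of the stages compared were raised to their highest floor.

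Values were analysed as log2(FPKM + 1), which understates the change of low genes. Limma 3.58.1 in R 4.3.3 fitted all 12 libraries together with an intensity trend, and two-sided p-values were adjusted over all genes by Benjamini-Hochberg within each contrast, with calls at an adjusted p under 0.05. The procedure was run on simulated data for KO against WT at the 1-cell stage, with independent normal noise. There KO equalled WT except for changes added to some genes. No library factor differed between the simulated genotypes, so the simulation cannot decide between the 2 scales. SD are over 2 libraries. The alternatives were the scale before the factor, median-ratio size factors, quantile normalization, pseudocounts of 0.1 and 5, a filter of 5 FPKM, no trend, only the groups compared, a replicate block and leaving out each library. The 8 genes and the wider lists were chosen with earlier results of these data known. From each list the text names the 3 highest and 3 lowest log2 fold changes among genes called on both scales for KO against WT at the 1-cell or the 2-cell stage, and for likeness the 3 nearest genes of each member whose group means spanned at least 2 on the log2 scale, of which 1 is not reported here.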

Additional observations from a re-analysis of the deposited data

Results flagged for a closer look

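For 6 values the effect of KO differed between stages by the interaction test as deposited (limma, adjusted over all genes). Between oocytes and 1-cell embryos the effect rose by 1.09 on the log2 scale for Uhrf1 (adjusted p = 0.0202), by 0.98 for Dppa3 (0.0241) and by 0.94 for Npm2 (0.0124), where all 4 pairings of a KO with a WT library were higher in KO at the 1-cell stage for each of them. Before the library factor none of these 3 passed, with terms of 0.08 for Uhrf1, -0.05 for Dppa3 and -0.08 for Npm2. The library factors were 0.432 and 0.552 in KO and 0.269 and 0.212 in WT 1-cell embryos, and move with these terms. Npm2 kept its call without any 1 of the 8 libraries. Uhrf1 lost it without the first WT oocyte library (adjusted p = 0.0669), the first KO oocyte library (0.0515) or the second WT 1-cell library (0.0523). Dppa3 lost it without the second WT oocyte library (0.0641), the first KO oocyte library (0.0549), the second WT 1-cell library (0.0584) or the second KO 1-cell library (0.0552).

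Between 1-cell and 2-cell embryos the effect fell by 1.80 for Dppa3 (adjusted p = 0.00141), with a term of -1.80, by 1.33 for Dnmt3l (-1.33, adjusted p = 0.0482) and by 0.79 for Dnmt1 (-0.79, adjusted p = 0.0355). Before the factor Dppa3 passed at -0.85 (adjusted p = 0.0324), Dnmt3l did not at -0.56 (adjusted p = 0.53), and Dnmt1 had the opposite sign at 0.14 and did not pass. Dnmt1 lay between 1.07 and 1.13 FPKM in the 2-cell libraries. By median-ratio scaling Dppa3 lost its call (-0.79, adjusted p = 0.0589), as it did with only its own groups in the fit (0.0501). Without 1 library Dppa3 kept its call in 8 of 8 fits, Dnmt3l lost it in 7 of 8 (adjusted p = 0.0649 to 0.156, all but the fit without the first KO 1-cell library) and Dnmt1 in 6 of 8 (0.0743 to 0.111, all but the fits without the first WT or the first KO 1-cell library).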

How the results depend on the processing

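The count of members called moved by over 1.5 times in 7 of 9 comparisons or terms under at least 1 other setting. For KO against WT at the 1-cell stage 6 were called as reported, 0 before the factor and 0 by median-ratio scaling, 1 after quantile normalization, 0 with only the 2 groups in the fit, and 3 to 8 when a library was left out. At the 2-cell stage 1 was called as reported, 2 before the factor, 3 by median-ratio scaling (1 higher and 2 lower), 5 with quantile normalization (3 higher and 2 lower), 2 after a filter of 5 FPKM and 2 without the trend. From GV oocytes to 1-cell embryos 8 were called in WT, all lower, and 3 before the factor, all lower, 4 by median-ratio scaling (1 higher and 3 lower) and 5 by quantile normalization (3 higher and 2 lower). In KO 6 were called, and 3 before the factor, by median-ratio scaling or with only the 2 groups. From the 1-cell to the 2-cell stage in KO 8 were called, and 5 before the factor or by median-ratio scaling. The term for the 1-cell stage against oocytes called 3, and 0 before the factor, 0 by median-ratio scaling, 1 with quantile normalization, 1 with only its own groups and 1 to 7 without a library. The term for the 2-cell against the 1-cell stage called 3, all lower, and 1 by median-ratio scaling (Npm2, higher), 6 with quantile normalization (4 higher and 2 lower), 1 with only its own groups and 1 to 6 without a library (all lower except 1 higher, Npm2, without the second WT 1-cell library). The cause was not tested beyond the settings themselves. KO against WT in oocytes called 0 members under every alternative run.

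Several directions reversed with the scaling. For KO against WT at the 1-cell stage Dnmt1 stood at -0.24 before the factor, -0.29 with size factors by median ratio and -0.46 on the quantile-normalized scale, Tet3 at -0.15, -0.20 and -0.35, Npm2 at -0.0518 and -0.24 under the latter 2, and Uhrf1 at -0.14 with quantile normalization. From oocytes to WT 1-cell embryos, in the same order of settings, Dnmt3a stood at 0.46, 0.43 and 0.87, Tet3 at 0.81, 0.78 and 1.33, Uhrf1 at 0.0231, 0.0151 and 0.61, and Dppa3 at 0.60, 0.60 and 0.28. In KO Dnmt3a stood at 0.15, 0.0701 and 0.42, Uhrf1 at 0.10, 0.0243 and 0.46, and with quantile normalization Tet3 at 1.00 and Dnmt3b at 0.20. Npm2 from the 1-cell to the 2-cell stage in KO stood at 0.0372, 0.0962 and 0.26. The 1-cell against oocyte term stood at -0.0507, -0.12 and -0.00528 for Dppa3, at -0.0782, -0.15 and -0.15 for Npm2, and at -0.15 for Uhrf1 with quantile normalization. The 2-cell against 1-cell term stood at 0.14, 0.21 and 0.82 for Dnmt1, and with quantile normalization at 1.36 for Tet3 and 0.95 for Uhrf1.

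The higher Npm2 level in KO 2-cell embryos passed in 13 of 14 alternatives, with log2 fold changes of 1.41 to 1.68, and in every fit that left out a library. Over all genes, KO against WT called 183 in oocytes (0 with only the 2 groups and 521 to 793 without a library), 5961 at the 1-cell stage (1086 before the factor and 609 with only the 2 groups) and 2211 at the 2-cell stage (949 with only the 2 groups and 4874 with quantile normalization). The numbers Rep1 and Rep2 are not said to pair samples, and same-numbered WT and KO libraries correlated in their deviations at 0.26 in oocytes, 0.13 at the 1-cell and -0.28 at the 2-cell stage. With the replicate block 5 members were called at the 1-cell stage, 1 at the 2-cell stage and 1 in the 2-cell against 1-cell term. A crossed pairing, chosen after seeing the data, called 0 members and 0 genes for KO against WT at the 2-cell stage, and 3 members from KO oocytes to KO 1-cell embryos. The small number of libraries and the floor limit these results, and the depth is unknown.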
